A study of Orbilia oligospora with 9 samples.

Results

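Of the 12901 loci in the deposited expression table, 1757 carried a numbered ID in place of a locus tag, and these loci without a tag are described here, each named by the letters NTL (no-tag locus) and the number its ID has in the table. They were chosen by that ID alone, with no expression value used. The other 11144 loci carried an AOL_ tag of the reference gene set of Orbilia oligospora (also named Arthrobotrys oligospora), a soil fungus that traps nematodes. RNA from hyphae of strain ATCC 24927 had been sequenced after growth for 5 days at 28 °C on TYGA, a tryptone, yeast extract and glucose agar. The 3 groups compared, each of 3 libraries, were WT, a group labelled Mdv1 knockdown and a group labelled Vps1 knockdown. The sample labels give every library the treatment tag "Aerial hyphae differentiation" and the batch tag "Day 5". The series' design text calls both mutants deletion strains (ΔAomdv1 and ΔAovps1) and the 3 libraries of a group biological replicates, without saying how many transformants or plates they came from. The p-values therefore measure the spread between these libraries.

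A locus without a tag is a place where sequenced RNA was assembled into a transcript although the reference annotation lists no gene there. In fungi such transcripts are known to include long noncoding RNAs, antisense transcripts, untranslated extensions of known genes, short protein-coding genes that gene finders miss, pieces of transposable elements and the genes of the mitochondrial genome. In baker's yeast, Mdv1 is a WD-repeat adaptor that helps recruit the dynamin-related GTPase that divides mitochondria, and Vps1 is a dynamin-related GTPase of vacuolar and peroxisomal membrane traffic.

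The measure was FPKM, sequenced fragments per kilobase of transcript, scaled to the size of the library. The transcript of MDV1 (AOL_s00097g206) stood at 133, 116 and 114 FPKM in the WT libraries and at 127, 118 and 82.5 in the libraries labelled Mdv1 knockdown. That of VPS1 (AOL_s00007g394) stood at 105, 72.7 and 83.1 in WT, at 41.2, 55.05 and 35.7 in the Mdv1 libraries and at 44.3, 22.6 and 46.9 in the Vps1 libraries. Reads from both targeted genes were thus present in the libraries labelled for them, and the groups are named by their labels throughout. Depth, recovered from the step size of low values, was 15880000 to 19340000 fragments per library. Library 3 of WT and library 3 of the Mdv1 group stood apart. They held 1240 and 1289 untagged loci at FPKM 1 or more, against 904 to 994 in the other 7 libraries, and a median untagged FPKM of 2 against 1.05 to 1.2. On tagged genes these 2 libraries differed. At FPKM 1 or more, WT replicate 3 held the most of all libraries (9155) and Mdv1 replicate 3 the fewest (8307). Their tagged medians were 14.2 and 9.31 FPKM, the latter the lowest, against 11.3 to 17.5 in the other 7.

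**Figure D1:**
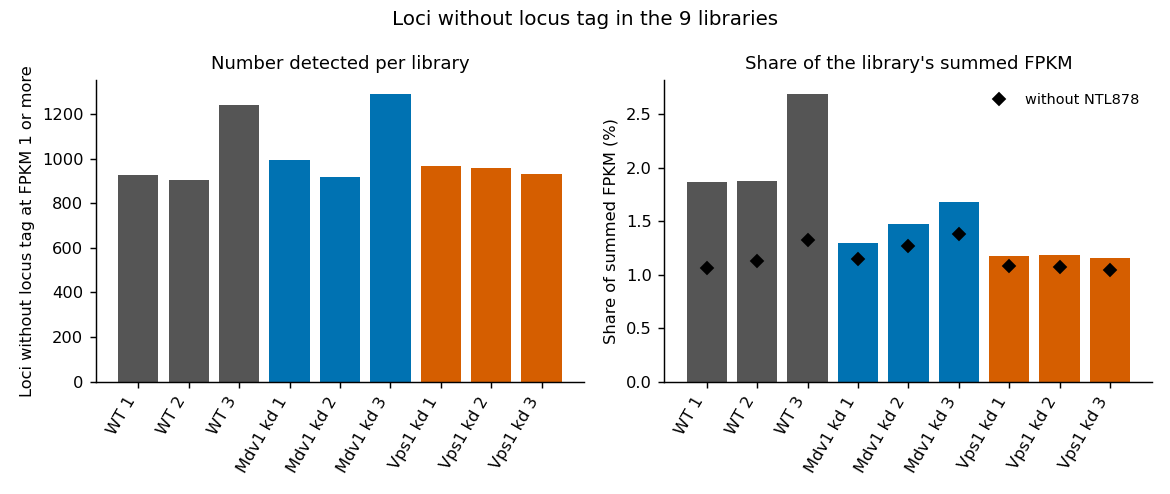
Left, number of loci without locus tag at FPKM 1 or more in each library; right, their share of the library's summed FPKM in percent, as bars, with the same share without NTL878 as diamonds (kd, knockdown as labelled). WT 3 and Mdv1 kd 3 hold the most detected loci (1240 and 1289), and the higher WT shares, 1.86 to 2.69%, come down to 1.07 to 1.33% without NTL878.

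Most of the untagged loci were transcribed at a low level. Counting a locus as expressed when 3 or more libraries reached an FPKM of 1, 1242 of 1757 (70.7%) were, against 9076 of 11144 tagged genes (81.4%). The median over loci of the mean FPKM was 1.34, against 16.5 for tagged genes. A mean of 5 FPKM or more was reached by 302 untagged loci (17.2%) and by 67.5% of tagged genes, and a mean of 100 or more by 16 untagged loci. None of the 1757 was listed at 0 in all libraries, and 1207 were above 0 in all 9. Because the RNA came from whole hyphal cultures, fewer cells of a type and less RNA per cell cannot be told apart in any of these values.

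The table gave a strand to 1333 of the loci (648 plus, 685 minus) and none to 424, whereas 0 tagged genes lacked one. Loci without a strand were short, with a median span of 353.5 bp against 1167 bp for those with a strand, and 201 of them (47.4%) were expressed against 1041 (78.1%). For the strandless loci the span served as the transcript length. Depth was chosen per library to make as many low values there whole in fragments as possible, so their wholeness is no separate check. At that depth every one tested, 199 to 242 per library, came out whole, within a tolerance of 0.1. For loci with a strand 36.4 to 43.8% of such values did, so the span was not the length behind the FPKM of many of them. At the median strandless span, an FPKM of 1 stood for 5.61 to 6.83 fragments. Over the 9 libraries together a strandless locus was backed by 5 to 5243 fragments, with a median of 48, and 15 of the 424 rested on fewer than 10.

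Protein similarity was rare. A hit in at least 1 annotation column was given for 504 loci (28.7%), all of them in TrEMBL, against 99.8% of tagged genes, and 1253 had none. For 469 the TrEMBL entry was a protein of A. oligospora itself, and 440 of the 504 entries were named only "Uncharacterized protein". Pfam domains were given for 48 loci and Swiss-Prot matches for 32, with 52 loci carrying at least one of these. Loci with a hit were longer (median span 1603 against 744 bp), less often strandless (48 of 504 against 376 of 1253) and more often expressed (79.6% against 67.1%) than loci without.

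Nearly all of the loci lay between the tagged genes. A single one, NTL1337, shared bases with a tagged gene: it held AOL_s00112g61 whole, on the same strand, over 35.6% of its span of 6468 bp, and both matched the glucan endo-1,3-beta-glucosidase btgC, an enzyme that cuts cell wall glucan. Another 95 loci overlapped each other, and 2 lay on scaffolds with no tagged gene. For the 1754 others that lay apart from a tagged gene on their scaffold, the median distance to the nearest one was 778 bp, and 1053 lay within 1000 bp, 231 of them within 100 bp. Distance followed orientation. Tail-to-tail loci (opposite strand, downstream of the gene) were the closest, with a median of 453 bp over 353 loci, followed by head-to-head loci (opposite strand, upstream) with 648 bp over 543. On the same strand, 324 loci lay upstream at a median of 769 bp and 112 downstream at a median of 1026 bp. Of the strandless loci, 375 lay upstream at a median of 977 bp, while the 47 downstream ones began no closer than 2063 bp.

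**Figure D2:**
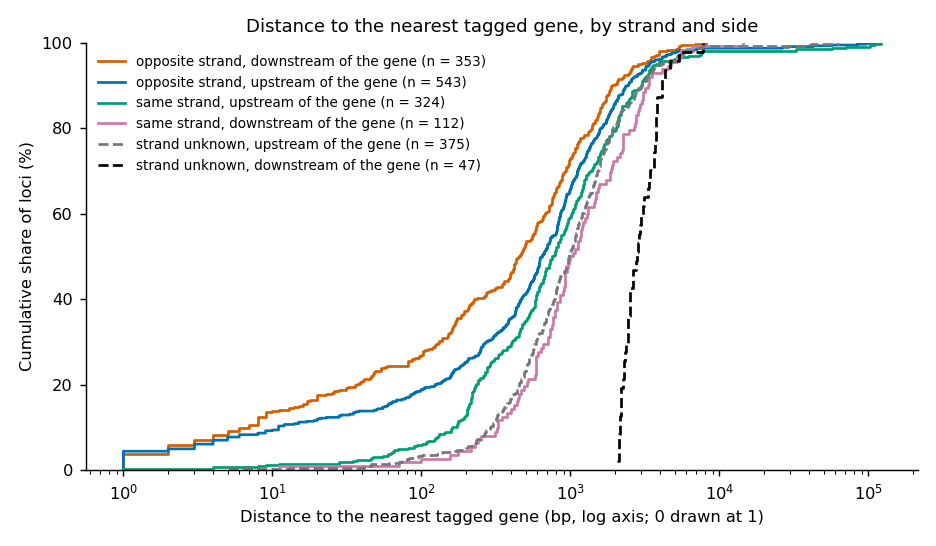
Cumulative share of the loci without locus tag (y axis, percent) by distance to the nearest tagged gene (x axis, bp, log axis), split by strand and side. The curve for tail-to-tail loci lies to the left with a median of 453 bp, and the strandless downstream loci start at 2063 bp.

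Level differed by orientation as well. Head-to-head loci were expressed in 83.8% of cases and tail-to-tail loci in 79.3%, against 71.3% and 66.1% of same-strand loci upstream and downstream. All 16 loci with a mean of 100 FPKM or more were stranded, 7 of them tail-to-tail, 6 head-to-head and 3 upstream on the same strand. The labels do not say whether the libraries kept the strand of the RNA. Where a locus abuts a gene on the other strand, fragments of the pair cannot be told apart from the table.

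The most abundant of all untagged loci was NTL878, a locus of 2041 bp on the minus strand of scaffold NW_011645635.1 (2002544 to 2004584) with no hit in any annotation column. It stood at 9063, 8430 and 16255 FPKM in the 3 WT libraries, at 1651, 2279 and 4075 in the Mdv1 libraries and at 1092, 1248 and 1242 in the Vps1 libraries. Every mutant library lay below every WT library, and within the mutants all Vps1 libraries lay below all Mdv1 libraries. On log2(FPKM + 1), with limma over all 10318 loci tested and Benjamini-Hochberg adjusted p-values, it fell in both groups, with a change of -2.11 ± 0.37 (SE) in the Mdv1 group (adjusted p = 0.00554) and of -3.17 ± 0.37 in the Vps1 group (adjusted p = 0.000436). The direct difference between the mutants, -1.06 ± 0.37, did not pass (adjusted p = 0.483). Among all 12901 loci NTL878 ranked 6th to 14th in the WT libraries, 35th to 86th in the Mdv1 libraries and 117th to 142nd in the Vps1 libraries. It alone made up 39.9 to 50.6% of the summed untagged FPKM in WT and 8.37 to 17.4% in the mutants.

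The nearest tagged gene did not move with it. NTL878 ends 102 bp from the end of AOL_s00078g583, a gene without a named domain on the other strand, which stood at 1.38 to 8.28 FPKM in all 9 libraries and passed the test in neither mutant (adjusted p = 0.507 and 0.524). On its other side, 194 bp away and head-to-head, lies NTL871, looked up after the values of NTL878 were seen. That locus stood at 90.6, 118 and 65.6 FPKM in WT, at 24.9, 33.4 and 31.1 in the Mdv1 libraries and at 28.3, 19.6 and 21.8 in the Vps1 libraries. All mutant values lay below all WT values, and NTL871 fell, with changes of -1.55 ± 0.31 (adjusted p = 0.00996) and -1.91 ± 0.31 (adjusted p = 0.00309). Its Mdv1 call was lost without WT replicate 2 (adjusted p = 0.054) and when only the 2 groups were fitted (0.0532), and the Vps1 call held under all 19 alternatives run.

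Most of the other abundant loci showed no change past the threshold. Tail-to-tail with the CFEM-domain gene AOL_s00076g241, whose Swiss-Prot match is a GPI-anchored hemophore, and only 2 bp from it, NTL710 stood at 1052, 914 and 1051 FPKM in WT and at 908 to 1935 in the 6 mutant libraries, the highest being library 3 of the Mdv1 group. Its partner stood at 2703 to 3628 FPKM in 8 libraries and at 1154 in that same library, where NTL710 was highest. A like pair was NTL145 and the S-adenosylmethionine synthase gene AOL_s00006g181, 28 bp away tail-to-tail: in library 3 of the Mdv1 group NTL145 stood at 549 FPKM, its highest value, and the gene at 21.8, against 136 to 354 in the other 8 libraries. The second most abundant locus, NTL914, stood at 2180 to 3309 FPKM in WT, 2272 to 3870 in the Mdv1 group and 1772 to 2083 in the Vps1 group. The next, NTL158 and NTL919, stood at 296 to 464 and 348 to 659 FPKM in WT and, like NTL145 (169 to 350 in WT), passed the test in neither mutant. Library 3 of the Mdv1 group was the highest of all 9 for NTL914, NTL710, NTL158, NTL145, NTL325 and NTL105. That library also had the lowest median FPKM of tagged genes (9.31), so these pairs are not set apart from the rest of it.

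Among the 10 most abundant loci were 2 with a protein name. The locus NTL105 matched 40S ribosomal protein S29, a structural protein of the small ribosomal subunit, and stood at 203 to 331 FPKM in WT, 282 to 376 in the Mdv1 group and 212 to 334 in the Vps1 group. The groups overlapped (adjusted p = 0.438 and 0.874). The locus NTL325 matched mitochondrial citrate synthase, which condenses acetyl-CoA with oxaloacetate at the entry of the citric acid cycle. Its levels were 173 to 348 FPKM in WT, 250 to 430 in the Mdv1 group and 193 to 223 in the Vps1 group, and it passed neither test (adjusted p = 0.558 and 0.66). Neither was the single copy of its family in the table, since 3 tagged genes carried the citrate synthase domain and 1 the S14p/S29e domain.

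Across the loci that could be tested, changes past the threshold were less frequent among untagged loci than over the whole table. In the Mdv1 group against WT, 79 of 1242 untagged loci (6.36%) passed an adjusted p of 0.05, with 45 higher and 34 lower. Over all 10318 loci tested the background was 9.84%, made up of 5.62% higher and 4.22% lower. In the Vps1 group 115 (9.26%) passed, 43 higher and 72 lower, against a background of 13.8%, made up of 8.61% higher and 5.21% lower. Lower Vps1 calls were thus near the background (5.80% against 5.21%), and higher Vps1 calls were below it (3.46% against 8.61%). At a mean FPKM of 5 or more the shares of untagged and tagged loci were alike: 9.27% against 9.52% in the Mdv1 group and 14.2% against 14.1% in the Vps1 group. Below that level they were 5.43% against 14.2% and 7.66% against 16.0%. The 515 loci under the filter were not tested.

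These counts moved with single libraries. Without WT replicate 3 the Mdv1 calls were 71 higher and 24 lower, and the Vps1 calls were 84 higher and 62 lower, so the prevailing Vps1 direction turned. Over all loci tested 13.8% and 21.1% were called in that setting. The total of Mdv1 calls fell to 44 without WT replicate 1, 29 without WT replicate 2, 52 without Mdv1 replicate 2, 45 without Vps1 replicate 1 and 49 without Vps1 replicate 3. The share of all loci called fell as well, to 6.17%, 5.07%, 8.53%, 7.34% and 7.49% in the same order. That of Vps1 calls was 75 without WT replicate 1, 42 without WT replicate 2, 48, 50 and 41 without Vps1 replicates 1, 2 and 3, and 198 without Mdv1 replicate 3. The shares over all loci there were 8.26%, 5.77%, 6.61%, 6.86%, 6.12% and 25.3%. With both libraries that stood apart left out, an alternative added after the data were seen, the calls rose to 173 (116 higher, 57 lower) and 306 (200 higher, 106 lower), of 1070 loci tested. The background there was 26.5% and 44.1%. Scaling mattered too: median-ratio scaling gave 40 higher and 46 lower Mdv1 calls and 34 higher and 97 lower Vps1 calls. It moved the median change over all loci in the Vps1 group from 0.30 to 0.00 on the log2 scale. The share of all loci called under that scaling is not given here, so these counts do not set untagged loci apart.

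The direct comparison of the Vps1 with the Mdv1 group gave 0 untagged calls with limma, and the background was 0% as well. Before adjustment 101 loci had a p under 0.05, of which 39 were higher and 62 lower in the Vps1 group. That is 8.13% of the untagged loci tested, against 9.66% of the tagged genes, among which 598 were higher and 279 lower. The lowest adjusted p was 0.292. No untagged locus had one mutant group above and the other below all WT libraries (0 of 1757). The same count over all loci is not given here.

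The deepest loss in the Mdv1 group was that of NTL212, a stranded locus of 3388 bp on scaffold NW_011645564.1 (160597 to 163984) whose hit is an uncharacterized A. oligospora protein. It stood at 42.9, 28.0 and 39.8 FPKM in WT, at 0.12, 0.41 and 0.13 in the Mdv1 libraries and at 0.29, 0.11 and 0.22 in the Vps1 libraries. All 6 mutant libraries were near 0, far below the WT range, so the locus passed the filter through WT alone. With any 1 WT library left out it was not tested. It fell, with a change of -4.94 ± 0.28 in the Mdv1 group (adjusted p = 3.89e-06) and of -4.95 ± 0.28 in the Vps1 group (adjusted p = 4.82e-06). The locus lies 671 bp head-to-head from AOL_s00007g56, matched to the yeast high-affinity methionine permease MUP1. That gene went from 46.1 to 76.1 FPKM in WT to 0.15 to 1.21 in the mutants and fell, with changes of -5.09 and -5.47 (adjusted p = 6.27e-06 and 5.14e-06). On its other side AOL_s00007g57, 812 bp away, also fell, with changes of -2.74 and -2.72 (adjusted p = 0.00776 and 0.00725). Beyond these the next genes, AOL_s00007g55 on one side (-5.92 and -5.71, adjusted p = 4.87e-06 and 7.58e-06) and AOL_s00007g58 (-2.21 and -1.95, adjusted p = 0.00473 and 0.00839) and AOL_s00007g59 (-1.27 and -1.34, adjusted p = 0.0146 and 0.0101) on the other, passed in both mutants too. The Mdv1 call of AOL_s00007g59 was lost when only the 2 groups were fitted (0.0743). Like NTL212, AOL_s00007g58 and AOL_s00007g59 passed the filter through WT alone. These neighbours were looked up after NTL212 was seen.

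Nearly as steep was the fall of NTL1645, another locus matched only to an uncharacterized protein. Its levels were 13.1, 17.2 and 15.2 FPKM in WT, 0.32, 0.33 and 0 in the Mdv1 libraries and 0.31, 0.83 and 0.48 in the Vps1 libraries. No mutant library reached 1, so this locus too passed the filter through WT alone. With any 1 WT library left out it was not tested. It fell, with changes of -3.74 ± 0.27 (adjusted p = 1.74e-05) and -3.40 ± 0.27 (adjusted p = 3.41e-05). The gene 491 bp downstream on the same strand, AOL_s00210g197, stood at 20.7 to 52.7 FPKM in WT and 9.31 to 27.5 in the mutants and changed by -0.99 in the Mdv1 group (adjusted p = 0.214) and by -1.56 in the Vps1 group (adjusted p = 0.0419), the latter a call lost without any 1 of WT replicates 2 and 3, Mdv1 replicate 1 and the 3 Vps1 libraries (0.057 to 0.138), with the replicate block (0.0653) and with no filter (0.0563).

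Other loci that fell lay within a few bases of a gene on the other strand, tail-to-tail. At 9 bp from AOL_s00081g357, a gene with a GRIM-19 domain (a family that includes a subunit of respiratory complex I), NTL1070 stood at 20.7, 20.2 and 49.7 FPKM in WT, 2.64 to 2.77 in the Mdv1 libraries and 0.84 to 2.53 in the Vps1 libraries. It fell, with changes of -2.94 ± 0.41 and -3.59 ± 0.41 (adjusted p = 0.00134 and 0.000345), while the neighbour changed by 0.96 and 1.13 with no call (adjusted p = 0.346 and 0.199). At 2 bp from AOL_s00110g189, NTL1307 stood at 4.45, 5.27 and 17.8 FPKM in WT and at 0 to 0.55 in the 6 mutant libraries, and it fell, with changes of -2.90 ± 0.44 and -2.94 ± 0.44 (adjusted p = 0.00228 and 0.00201). WT replicate 3 was the highest library for both loci. NTL1307 passed the filter through WT alone, and with any 1 WT library left out it was not tested.

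WT replicate 3 was also the highest library for NTL443, NTL78 and NTL1518, which fell in both mutants. For NTL443 the WT values were 49.0, 54.8 and 237 FPKM against 9.84 to 23.8 in the mutants, with changes of -2.51 ± 0.58 and -2.39 ± 0.58 (adjusted p = 0.0213 and 0.023). Its call was lost without Mdv1 replicate 2 (adjusted p = 0.0658) or with only the 2 groups fitted (0.0575) in the Mdv1 group, and without Vps1 replicate 2 or 3 (0.0946 and 0.0832) in the Vps1 group. For NTL78, 144 bp upstream of the amino acid permease gene AOL_s00004g363, WT values were 4.69, 11.8 and 23.9 against 0.82 to 2.29, with changes of -2.21 ± 0.48 and -2.50 ± 0.48 (adjusted p = 0.0159 and 0.00741). The Mdv1 call of NTL78 was lost without WT replicate 2 (0.069) or Mdv1 replicate 2 (0.052), or with only the 2 groups fitted (0.0639). For NTL1518, at 2.32, 1.65 and 12.9 FPKM in WT and 0 to 0.55 in the mutants, the Mdv1 call (-2.07 ± 0.53, adjusted p = 0.0358) was lost without any 1 of the 6 mutant libraries (0.0574 to 0.0872) and when only the 2 groups were fitted (0.105), and the Vps1 call (-2.04 ± 0.53, adjusted p = 0.0313) without any 1 of the 3 Vps1 libraries (0.0825 to 0.107). Without WT replicate 3 the calls of NTL443 and NTL78 held. NTL1518 passed the filter through WT alone and was not tested with any 1 WT library left out.

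Some loci fell past the threshold in the Vps1 group alone, although the difference from the Mdv1 group passed for none. The largest of these falls was that of NTL447, 468 bp on scaffold NW_011645600.1 (2738306 to 2738773) with no hit. It stood at 71.0, 117 and 301 FPKM in WT, at 48.2, 62.5 and 13.7 in the Mdv1 libraries and at 3.31, 3.06 and 1.99 in the Vps1 libraries. The Vps1 values were the lowest, and the Mdv1 values lay between them and WT without overlap. It fell in the Vps1 group, with a change of -5.19 ± 0.62 (adjusted p = 0.000464), while the Mdv1 change was -1.93 ± 0.62 (adjusted p = 0.0831). Tail-to-tail at 110 bp, AOL_s00043g805, an uncharacterized gene, went from 83.2 to 292 FPKM in WT to 6.29 to 7.80 in the Vps1 libraries and fell, with a change of -4.35 ± 0.78 (adjusted p = 0.00541). In the Mdv1 libraries that gene stood at 56.8, 101 and 8 FPKM (adjusted p = 0.128), so library 3 was the lowest for both members of the pair.

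A similar order was seen for NTL1695, the tenth most abundant untagged locus. It stood at 420, 771 and 387 FPKM in WT, at 134, 323 and 193 in the Mdv1 libraries and at 43.5, 43.5 and 29.3 in the Vps1 libraries, with no overlap between the 3 groups. It fell in the Vps1 group, with a change of -3.68 ± 0.39 (adjusted p = 0.000219), and the Mdv1 change was -1.30 ± 0.39 (adjusted p = 0.0657). The direct difference between the mutants was -2.38 ± 0.39 (adjusted p = 0.292). On scaffold NW_011645561.1, NTL59 stood at 4.12, 6.92 and 20.7 FPKM in WT, 1.52 to 2.88 in the Mdv1 libraries and 0.29 to 0.60 in the Vps1 libraries, and fell, with a change of -2.72 ± 0.47 (adjusted p = 0.00453). The tagged gene AOL_s00004g278, 8 bp from NTL59, stood at 0.49 to 3.56 FPKM in WT and 0 to 0.25 in the Vps1 libraries. It changed by -1.36 without passing (adjusted p = 0.0701), and it lies between NTL59 and NTL60. The nearest untagged loci on either side of NTL59, NTL56 and NTL60, were looked up for their position. The first went from 3.24 to 18.8 FPKM in WT to 0.36 to 1.00 in the Vps1 libraries (-2.25, adjusted p = 0.0158, lost without Vps1 replicate 1 or 3 at 0.0641 and 0.0743), and the second from 32.7 to 81.1 to 9.38 to 9.51 (-2.45, adjusted p = 0.00318). No run of 3 or more untagged loci in direct succession was called the same way.

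**Figure D3:**
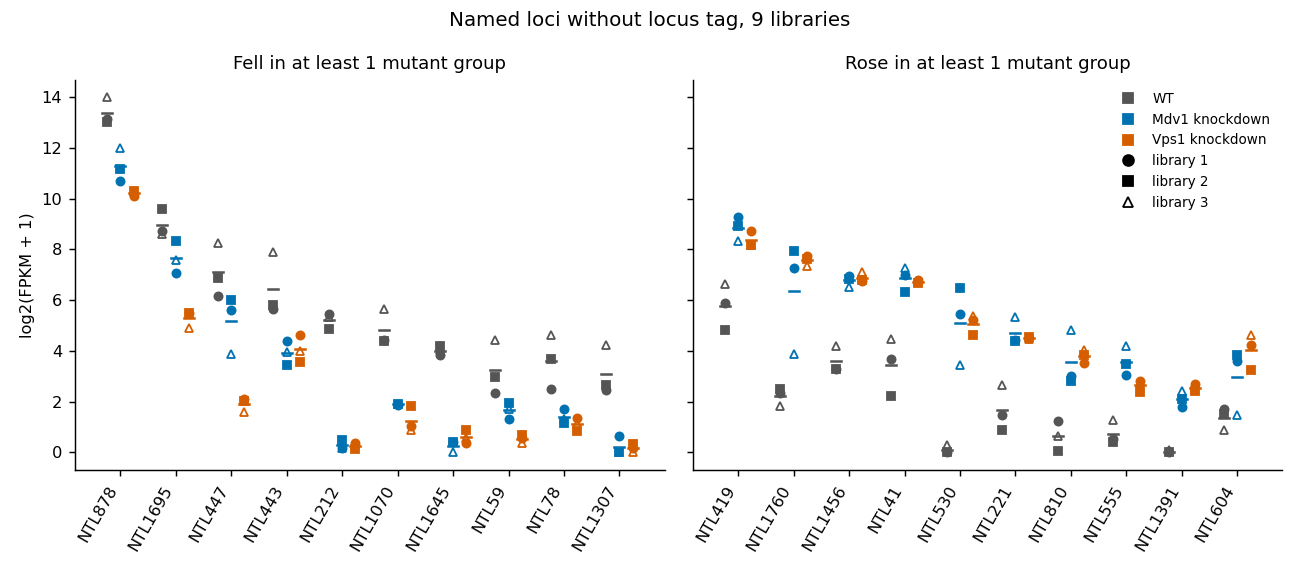
log2(FPKM + 1) of 20 named loci in each library; colours mark the groups, symbols the library numbers, and short bars the group means. At NTL212, NTL1645 and NTL1307 all 6 mutant libraries lie near 0, at NTL447 and NTL1695 the Vps1 libraries lie lowest, and at NTL530 and NTL1391 the WT libraries lie at or near 0.

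The largest rise in the Mdv1 group was that of NTL530, a locus of 948 bp on scaffold NW_011645611.1 (943843 to 944790) with no hit. It was listed at 0, 0 and 0.23 FPKM in WT, at 42.4, 87.4 and 9.76 in the Mdv1 libraries and at 36.0, 23.9 and 40.9 in the Vps1 libraries. All 6 mutant libraries were above all WT libraries, with library 3 the lowest of the Mdv1 group. It rose by 5.01 ± 0.64 (adjusted p = 0.000774) and by 4.98 ± 0.64 (adjusted p = 0.000745). On the same strand and 28 bp downstream begins AOL_s00054g301, an uncharacterized gene that went from 0.04 to 0.68 FPKM in WT to 40.5 to 126 in the mutants and rose by 5.98 and 5.36 (adjusted p = 8.64e-06 and 1.99e-05). On the other side, 2241 bp away, AOL_s00054g302, matched to the probable lipid transporter atnI of a fungal secondary metabolite cluster, went from 0.82 to 1.34 FPKM to 246 to 642 and rose by 8.12 and 7.37 (adjusted p = 2e-07 and 3.95e-07). Beyond AOL_s00054g301, AOL_s00054g300 went the other way, from 19.1 to 88.7 FPKM in WT to 0 to 7.19 in the mutants (-3.92 and -4.03, adjusted p = 0.00973 and 0.00765), and its Mdv1 call was lost without WT replicate 2 (0.0584) and its Vps1 call with a pseudocount of 0.1 (0.0586). These genes were looked up after NTL530 was seen.

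The locus NTL1760 lies 728 bp head-to-head from AOL_s00215g555, the gamma-actin gene, and its hit is an uncharacterized protein. It stood at 4.08, 4.71 and 2.51 FPKM in WT, at 152, 242 and 13.9 in the Mdv1 libraries and at 212, 199 and 161 in the Vps1 libraries. Again library 3 of the Mdv1 group was the lowest mutant library, yet above WT. It rose by 4.14 ± 0.83 (adjusted p = 0.0106) and by 5.35 ± 0.83 (adjusted p = 0.00242). The actin gene stood at 892 to 1026 FPKM in WT and 1831 to 2406 in the mutants and rose by 1.17 and 1.33 (adjusted p = 0.00903 and 0.00411), the first a call lost when only the 2 groups were fitted (0.0775).

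Other risers had steady levels in both mutants. With an uncharacterized protein as its hit, NTL1456 stood at 8.79, 8.75 and 17.5 FPKM in WT and at 91.4 to 136 in the 6 mutant libraries, and it rose by 3.18 ± 0.32 and 3.28 ± 0.32 (adjusted p = 0.000168 and 0.000128). Without any hit, NTL41 stood at 11.7, 3.62 and 21.2 in WT and at 79.8 to 154 in the mutants, and it rose by 3.42 ± 0.51 and 3.28 ± 0.51 (adjusted p = 0.00201 and 0.00237). The levels of NTL419 were 27.3 to 98.3 FPKM in WT and 284 to 615 in the mutants, with rises of 3.06 ± 0.45 and 2.58 ± 0.45 (adjusted p = 0.00173 and 0.00434). In none of these did a mutant library overlap WT.

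At lower levels, NTL221 went from 0.87 to 5.33 FPKM in WT to 20.0 to 39.4 in the mutants and rose by 3.04 ± 0.46 and 2.83 ± 0.46 (adjusted p = 0.00221 and 0.00318). The locus NTL810, 205 bp upstream of a gene matched to the appressorium virulence factor GAS1 of the rice blast fungus (AOL_s00078g204), went from 0.03 to 1.33 FPKM to 6.09 to 27.5 and rose by 2.91 ± 0.53 and 3.16 ± 0.53 (adjusted p = 0.00649 and 0.00382). In both, library 3 of the Mdv1 group was the highest of all. In the Vps1 group the strandless locus NTL604, of 209 bp, rose from 0.84 to 2.25 FPKM to 8.62 to 23.5 (2.67 ± 0.61, adjusted p = 0.0174). That call was lost without WT replicate 2 (0.0662) or Vps1 replicate 1 or 3 (0.0716 and 0.0826). In the Mdv1 libraries NTL604 stood at 11.3, 13.2 and 1.81 FPKM, so library 3 lay within the WT range (1.61, adjusted p = 0.143).

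Loci with a named protein family formed small lists, chosen with earlier results of the series known, and most of their members did not pass. Of 12 loci for nucleotide-binding and repeat proteins (ankyrin, NACHT, F-box and the like, families of protein binding and of fungal nonself recognition), all were tested. In the Mdv1 group 1 rose and 1 fell, and in the Vps1 group 1 rose, with median changes of 0.01 and 0.33 beside medians of 0.08 and 0.30 over all loci tested. Over all loci 9.84% and 13.8% were called, so counts of 2 and 1 in 12 are near the background. The riser was NTL1391, whose hit is an F-box protein, a family that brings substrates to ubiquitin ligases. It stood at 0, 0 and 0.06 FPKM in WT, at 2.45, 3.26 and 4.39 in the Mdv1 libraries and at 5.47, 4.39 and 4.70 in the Vps1 libraries, so the mutants lay clear of WT. It rose by 2.07 ± 0.27 and 2.52 ± 0.27 (adjusted p = 0.000834 and 0.000218). It was also the single call among the 5 loci on the proteolysis list, all of which were F-box proteins counted on both lists.

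The faller was NTL1496, an ankyrin repeat locus at 7.36, 7.47 and 7.60 FPKM in WT, 2.48 to 3.73 in the Mdv1 libraries and 4.07 to 4.73 in the Vps1 libraries. Its Mdv1 change of -1.04 ± 0.27 (adjusted p = 0.0394) was lost under 12 of 19 alternatives, among them leaving out WT replicate 1 or 2, Mdv1 replicate 1 or 2 or any Vps1 library (0.0557 to 0.118), the replicate block (0.0866) and a fit of only the 2 groups (0.197). Outside the list, NTL555 carried the name of a WD-repeat protein, the repeat type that Mdv1 has too. It stood at 0.43, 0.33 and 1.45 FPKM in WT, 7.34, 10.2 and 17.1 in the Mdv1 libraries and 5.96, 4.24 and 5.65 in the Vps1 libraries, and rose by 2.83 ± 0.38 and 1.90 ± 0.38 (adjusted p = 0.00104 and 0.00895). Without WT replicate 2 the Vps1 value was 0.0528. The locus beside it, NTL554, rose in the Mdv1 group as well (1.66, adjusted p = 0.0275), a call lost without WT replicate 1 or 2, Mdv1 replicate 2 or Vps1 replicate 1, or when only the 2 groups were fitted (0.0506 to 0.124).

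The search terms of the transposable element list matched 3 loci, and elements annotated in other words would be missed. Reverse transcriptase copies RNA into DNA and is found in retroelements. The strandless locus NTL1608, of 234 bp, matched the fission yeast retroelement Tf2-11. It stood at 0.22, 0 and 0 FPKM in WT, at 6.41, 17.3 and 0 in the Mdv1 libraries and at 5.91, 8.38 and 12.4 in the Vps1 libraries. Library 3 of the Mdv1 group was thus with WT. The locus rose in the Vps1 group (3.16 ± 0.84, adjusted p = 0.0328), a call lost without any 1 of the WT or Vps1 libraries (0.0579 to 0.12) and with no filter (0.0524). The strandless locus NTL1480, matched to the yeast retroelement Ty3, stood at 0.16, 0 and 0 FPKM in WT, at 1.46, 1.14 and 4.88 in the Mdv1 libraries and at 1.32, 0.71 and 2.08 in the Vps1 libraries. It rose in the Mdv1 group (1.58 ± 0.39, adjusted p = 0.0308), a call lost without any 1 of the WT libraries or without Vps1 replicate 1, or with only the 2 groups fitted (0.0554 to 0.12), and its Vps1 change was 1.13 (adjusted p = 0.0841). The Mdv1 change of NTL1608, 2.27 with all libraries (adjusted p = 0.13), and the Vps1 change of NTL1480 passed without Mdv1 replicate 3 (0.00101 and 0.0168). Leaving out that library also raised the share of all loci called in the Vps1 group, as given above. The Mdv1 share in that setting is not given here, so these calls do not set the 2 loci apart. The third, NTL463, has a reverse transcriptase domain, but its Swiss-Prot match is a yeast COX1 intron protein. It lay on the scaffold with mitochondrial hits and was not tested.

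The other lists gave no further calls. They included 9 redox loci (8 tested) and 20 loci for mitochondria and energy (18 tested), of which 17 lay on the scaffold with mitochondrial hits. The transporter list held 3 loci, NTL472, NTL473 and NTL475, which are annotated as subunits of complex I and counted on the redox and mitochondria lists too. The signalling list held NTL12, matched to the yeast Rab GTPase Ypt31, which acts in Golgi and endosomal traffic. It stood at 18.0, 17.4 and 59.0 FPKM in WT, 43.1 to 55.8 in the Mdv1 libraries and 42.9 to 52.1 in the Vps1 libraries, with WT replicate 3 above all others (adjusted p = 0.273 and 0.229). The translation list held NTL105 and NTL802, a locus named for alanine-tRNA ligase that stood at 2.19 to 8.83 FPKM in WT, at 13.3, 14.8 and 0 in the Mdv1 libraries and at 16.8 to 24.2 in the Vps1 libraries (adjusted p = 0.961 and 0.233). Proteases (NTL236, an aspartic peptidase, and NTL1480), carbohydrate-active proteins (NTL1337 and NTL51), and the single secreted CFEM protein NTL1647, which was not expressed, added no call. The search terms of the transcription factor list matched 0 untagged loci, but 3 loci, picked out afterwards by their annotation, carry names of such proteins. NTL1642, with a C2H2 zinc finger domain, stood at 6.32 to 23.4 FPKM in WT, 2.84 to 4.10 in the Mdv1 libraries and 3.60 to 5.33 in the Vps1 libraries, so that both mutant groups lay below WT without passing the test (adjusted p = 0.104 and 0.156). NTL950, matched to the notoamide pathway activator notL of the fungus Aspergillus, stood at 0.54 to 5.64 FPKM in WT and 2.21 to 6.56 in the mutants, and NTL1118, named a MADS-box protein, at 4.33 to 13.5 and 5.60 to 11.2, with overlapping groups and no call.

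Several loci matched conserved proteins whose Pfam family no tagged gene in the table carried; they were chosen for that annotation. The locus NTL880 matched Atg29, which in baker's yeast belongs to the complex that starts autophagosome formation, and stood at 4.4 to 5.56 FPKM in WT, 3.49 to 5.53 in the Mdv1 libraries and 6.60 to 7.52 in the Vps1 libraries (adjusted p = 0.841 and 0.341). The locus NTL1502 matched MoaE, the catalytic subunit of molybdopterin synthase, and stood at 7.95 to 30.6 FPKM in WT and 9.30 to 22.7 in the mutants. The locus NTL329 carried a domain like Hsk3, a subunit of the kinetochore DASH complex of yeasts, although its TrEMBL entry names a Mediator subunit, and stood at 3.85 to 13.8 FPKM in WT, at 11.8, 12.6 and 0 in the Mdv1 libraries and at 13.1 to 15.4 in the Vps1 libraries. None of these passed a test. Another, NTL795, with a domain of unknown function (DUF3429), stood at 2.97 to 4.61 FPKM in WT, 10.3, 29.6 and 36.3 in the Mdv1 libraries and 9.31 to 12.3 in the Vps1 libraries, and rose in the Mdv1 group (2.36, adjusted p = 0.00748).

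One scaffold, NW_011645605.1, held 19 untagged loci and 1 tagged gene, AOL_s00048g1. This set was drawn up after its annotation was seen. Its hits were proteins that fungal mitochondrial genomes encode: subunits of respiratory complex I (NTL464 for chain 1, NTL473 for chain 4, NTL472 and NTL475 for chain 5), cytochrome c oxidase subunits (NTL461 with the subunit 1 domain, NTL480 and NTL481 for subunit 3), ATP synthase subunit 9 (NTL471), an organellar DNA polymerase (NTL469), and homing endonucleases of the LAGLIDADG and GIY-YIG types, which mobile introns carry. For NTL471 and NTL481 only Swiss-Prot named the subunit, and the Pfam, TrEMBL and NR hits were LAGLIDADG endonucleases. TrEMBL and NR gave a GIY-YIG protein for NTL461, and TrEMBL a LAGLIDADG endonuclease for NTL472 and NTL475. The scaffold held the longest untagged span of the table, NTL472 with 83406 bp, and 4 of the 5 longest lay here. That span (86330 to 169735) holds those of NTL471, NTL473 to NTL475 and NTL477 to NTL481, so the loci overlap in part.

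Levels on this scaffold were low except at 3 loci. The locus NTL465, whose NR hit is an open reading frame in an intron of the large ribosomal RNA gene (rnl), stood at 47.8, 40.5 and 64.7 FPKM in WT, 54.01, 36.1 and 123 in the Mdv1 libraries and 31.4, 47.3 and 43.9 in the Vps1 libraries. Its neighbour NTL466, with another rnl intron hit, stood at 17.6 to 20.9, 11.03 to 17.8 and 11.5 to 15.4 FPKM in the 3 groups, and NTL470, with a LAGLIDADG domain, at 18.1 to 23.1, 11.4 to 38.8 and 15.9 to 18.9. The complex I locus NTL464 stood at 0.93 to 1.59 FPKM in WT, 1.72 to 7.98 in the Mdv1 libraries and 1.93 to 3.13 in the Vps1 libraries, so that WT was lowest, without passing the test (adjusted p = 0.151 and 0.316).

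None of the 15 tested loci of the scaffold was called in either mutant, with a lowest limma adjusted p of 0.135 in the Mdv1 group and 0.221 in the Vps1 group. Over all loci tested 9.84% and 13.8% were called, so a count of 0 in 15 is little below the background. Before adjustment, the limma p was under 0.05 for 2 loci in the Mdv1 group and 0 in the Vps1 group. Over all untagged loci tested the shares were 16.7% and 21.9%, and over the tagged genes 23.7% and 31.7%. The 19 loci overlap in part. Summed over them, FPKM was 110, 97.7 and 134 in WT, 123, 77.2 and 258 in the Mdv1 libraries and 83.7, 110 and 108 in the Vps1 libraries. Library 3 of the Mdv1 group was the highest of all 9 at 17 of the 19 loci. The median change in the Mdv1 group was 0.36, beside 0.08 over all loci, both with all libraries. Without that library it was 0.07, and the median over all loci in that setting is not given here. With all libraries the median change in the Vps1 group was 0.09, beside 0.30 over all loci. Whether the RNA selection step kept mitochondrial transcripts is not stated in the labels, and its part in these low levels was not tested.

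**Figure D4:**
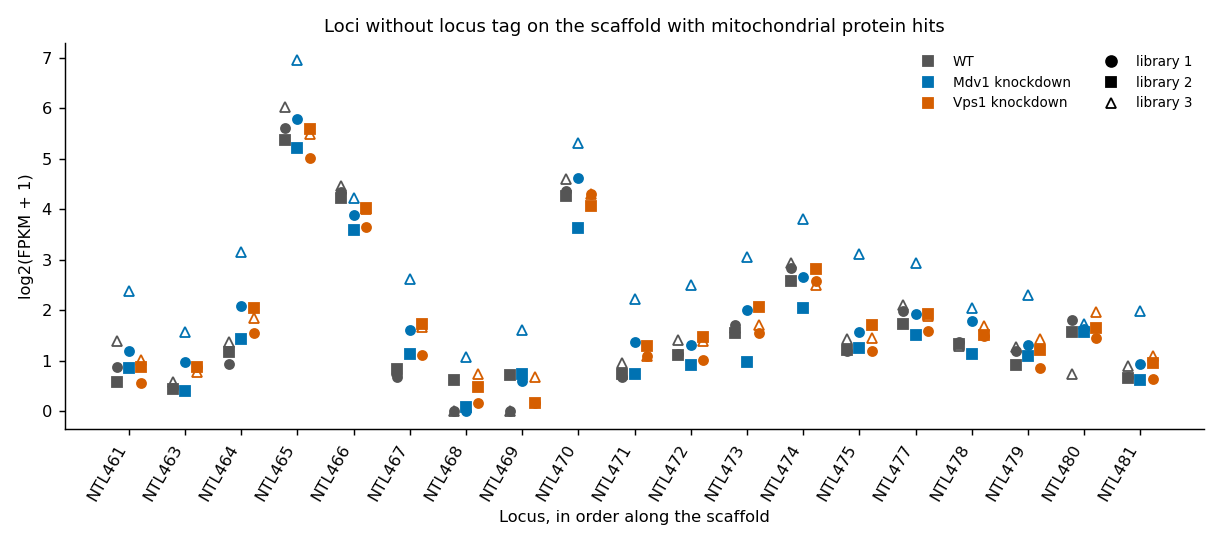
log2(FPKM + 1) of the 19 untagged loci on the scaffold with mitochondrial protein hits, in map order, with colours for groups and symbols for library numbers. Library 3 of the Mdv1 group (open blue triangle) is the highest at 17 of 19 loci, and NTL465, NTL466 and NTL470 stand above the rest.

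Changes of untagged loci ran in part with those of the gene beside them. Over the 1078 tested loci whose nearest tagged gene was tested too, Spearman's rho between the log2 changes of the 2 was 0.28 in the Mdv1 group and 0.38 in the Vps1 group. It was 0.35 and 0.45 for the 705 pairs within 1000 bp and 0.16 and 0.26 for the 373 pairs farther apart. For head-to-head pairs within 500 bp (192) it was 0.41 and 0.56, and for tail-to-tail pairs within 500 bp (126) 0.25 and 0.39. The 27 loci on the same strand within 1000 bp downstream of a gene had -0.27 and -0.19. For scale, tagged genes and their nearest tagged gene within 1000 bp (5526 genes) had 0.20 and 0.22. These are descriptions across loci that share libraries and WT samples, and the 2 mutant columns share their WT libraries as well.

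Among loci past the threshold the neighbour was called more often than among the rest. In the Mdv1 group the nearest tagged gene had passed for 20 of 65 called loci (30.8%), 19 in the same direction and 1 in the opposite one, against 92 of 1013 loci not called (9.08%). In the Vps1 group it had passed for 33 of 102 (32.4%), 31 in the same direction, against 120 of 976 (12.3%). Over all tagged genes tested the shares called were 10.3% and 14.4%. For the remaining 45 and 69 called loci the nearest tagged gene did not pass, as at NTL878 and NTL1070.

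**Figure D5:**
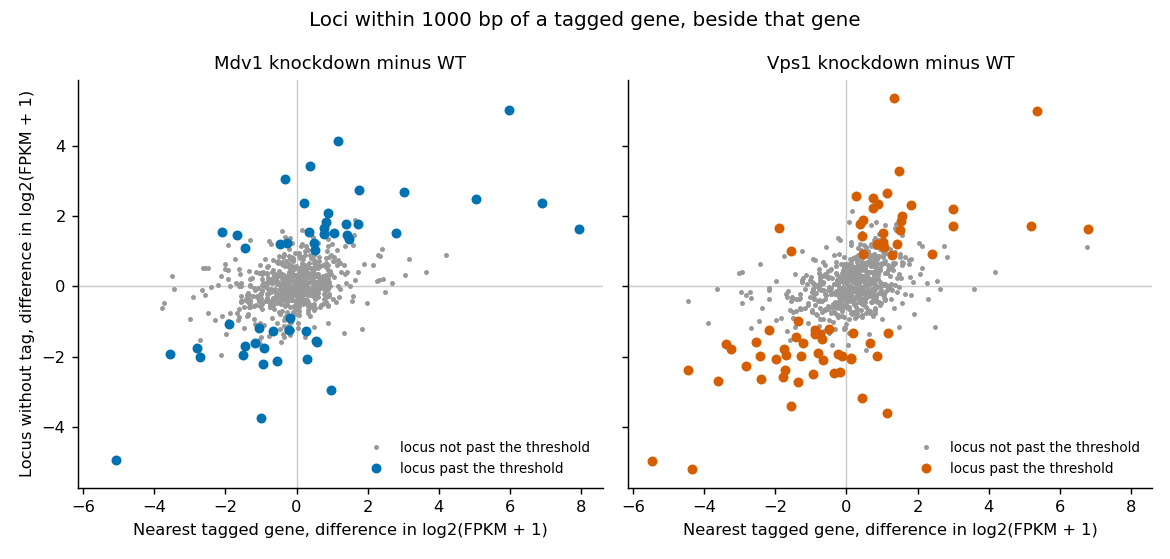
Difference in log2(FPKM + 1) between each mutant group and WT for loci without locus tag (y axis) and for the nearest tagged gene within 1000 bp (x axis), with loci past the threshold in colour. Both panels rise from lower left to upper right, with Spearman's rho of 0.35 (left) and 0.45 (right) over 705 pairs, and several coloured points lie near an x value of 0.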

How the data were processed

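RNA-seq libraries of hyphae were summarised by the authors in 1 deposited table of FPKM values with 2 decimals, coordinates and annotation hits for each locus. Which aligner, assembler, counter and genome build were used is not given in the sources used here. The coordinates of all 11144 tagged genes equalled those of the RefSeq gene table of this species. The table held 0 columns of other samples.

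Loci were members if their ID was not empty and did not begin with AOL_. The members, lists and named loci were chosen with earlier results of these data known. Named were the 10 loci with the highest mean, the 8 largest risers and fallers per mutant (adjusted p under 0.05, groups apart, mean FPKM of 5 or more in a group), the 6 largest in each direction called in both, up to 2 per list and direction, all members of lists under 4, called loci near a tagged gene and the 5 longest spans.

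Values were analysed as log2(FPKM + 1), so changes of low loci are understated. The 10318 loci that reached an FPKM of 1 in 3 or more of the 9 libraries entered limma 3.58.1 in R 4.3.3 (limma-trend, group only, two-sided, Benjamini-Hochberg). The procedure was tested on simulated data. An exact permutation test of 3 against 3 cannot go below 0.1. Depth came from strandless loci, where FPKM times span is a whole number of fragments (tolerance 0.1). Distances are bases between spans.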

Additional observations from a re-analysis of the deposited data

How the results depend on the processing

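Untagged calls in the Mdv1 group numbered 79 as reported and 73 to 92 under another pseudocount, no filter, both scalings, a span minimum and overlap removal, and 67 with the replicate block, all within 1.5 times. A mean FPKM of at least 5 left 25 calls and a fit of only the 2 groups 26. Leaving out 1 library gave 29 to 95. In the Vps1 group the 115 calls became 98 with the replicate block, 40 at a mean FPKM of at least 5 and 190 with only the 2 groups. Without 1 library they were 41 to 198, and quantile scaling gave 35 higher and 89 lower. Where the share of all loci called is not given above, these counts do not set untagged loci apart from the table. Without both libraries that stood apart, calls were 173, 306 and, between the mutants, 4, where all other settings gave 0 except leave-one-out (0 to 2). The cause was not tested. Deviations of same-numbered libraries correlated at -0.28 to 0.39, with 3 of 9 pairs over 0.1. Those were WT with Mdv1 replicate 2 (0.39), WT with Vps1 replicate 3 (0.24) and WT with Mdv1 replicate 3 (0.15). The block rests on shared numbers only, and whether same-numbered libraries shared a batch was not tested. At FPKM 5 or more in 3 libraries 336 loci counted as expressed, at 0.1 or more 1699, and without 1 library 1158 to 1216. A shared span of at least 50% left 0 overlaps, and the domain column alone 48 annotated loci. Of 41 named calls, 31 held under every alternative that tested them and 0 reversed. For NTL212, NTL1645 and NTL1307, which passed the filter through WT alone, no alternative that left out a WT library was among these. Depth limits low loci: at an FPKM of 1 a short locus rests on about 6 fragments.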
